A study of Mus musculus with 12 samples.

Results

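The regulators of G protein signaling (RGS) are a family of proteins that shorten the signal of G protein-coupled receptors, and 10 of their genes were followed here in MIN6, an insulin-secreting line grown from a mouse insulinoma. The genes were Rgs2, Rgs3, Rgs4, Rgs7, Rgs9, Rgs10, Rgs12, Rgs16, Rgs17 and Rgs19, taken by gene name from 54022 genes in the deposited tables, which hold 21 genes named Rgs with a number. Wild-type cells were treated with 100 nM TMAO (trimethylamine N-oxide, a metabolite made in the liver from a product of gut microbes) for 18 h or with vehicle. After a fast, which all samples shared, the cells were given low (2.8 mM) or high (16.8 mM) glucose. RNA from 3 samples, described as biologically independent, was sequenced for each of the 4 conditions: low glucose with vehicle, low glucose with TMAO, high glucose with vehicle and high glucose with TMAO. The length of the glucose stimulation before RNA extraction is not given in the sources used here. MIN6 is a single tumour-derived line, so its RGS levels describe that line and not islet beta cells in tissue. All 7 beta cell markers checked were detected, and of 11 markers of acinar, duct, vessel, stromal and immune cells 6 were at 0 in every library and the summed level of all 11 was at most 1.93 FPKM. Gcg, a marker of other islet cells, was detected too, at 199.6 to 227.4 FPKM, beside 171.7 to 200 FPKM for the beta cell marker Pdx1. In these bulk samples, less RNA per cell and fewer cells of a kind cannot be told apart.

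A receptor that has bound its ligand makes the alpha subunit of a heterotrimeric G protein exchange GDP for GTP, and the signal lasts until that GTP is hydrolysed. RGS proteins speed this hydrolysis through a shared RGS domain, mostly on alpha subunits of the Gi/o and Gq/11 classes. In beta cells, Gi/o-coupled receptors such as those for somatostatin and adrenaline restrain insulin secretion, while Gq/11-coupled receptors such as the muscarinic receptor M3 raise it. The 10 members fall into the R4 subfamily of mostly small proteins (Rgs2, Rgs3, Rgs4 and Rgs16), the R7 subfamily (Rgs7 and Rgs9), which pairs with the G beta subunit Gnb5, the R12 subfamily (Rgs10 and Rgs12) and the RZ subfamily (Rgs17 and Rgs19).

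Levels were compared as the deposited FPKM, fragments counted per kilobase of gene and scaled to a common library size. In vehicle-treated cells at low glucose the order was Rgs4, Rgs9, Rgs3, Rgs2, Rgs7, Rgs19, Rgs10, Rgs12, Rgs17 and Rgs16. Rgs4, a small RGS protein that acts on both Gi/o and Gq alpha subunits, had 22.2 ± 0.946 FPKM (SD, n = 3). Rgs9, best known from the retina and the striatum, had 18.0 ± 1.06 FPKM, and Rgs3, an R4 member with long and short forms, had 13.4 ± 0.0424 FPKM. These 3 genes stood above the other 7 in every library of all 4 conditions. Rgs2, which prefers Gq alpha subunits, had 5.27 ± 0.190 FPKM and Rgs7, the neuronal relative of Rgs9, had 4.73 ± 0.155 FPKM. Rgs19, also called GAIP, had 4.12 ± 0.0950 FPKM, Rgs10, a short protein selective for Gi, had 4.02 ± 0.312 FPKM, and Rgs12, a large scaffold with further domains, had 3.64 ± 0.260 FPKM. The libraries of Rgs19 overlapped those of Rgs10, and those of Rgs10 overlapped those of Rgs12, so their order was not resolved. At the low end, Rgs17, which acts on Gi/o and Gz, had 1.90 ± 0.0557 FPKM and Rgs16, an R4 member that acts on Gi and Gq, had 1.05 ± 0.161 FPKM. All other adjacent pairs in the order did not overlap in this condition. With low glucose and TMAO the libraries of Rgs4 and Rgs9, and those of Rgs7 and Rgs10, overlapped as well, and at high glucose, with either treatment, those of Rgs17 and Rgs16 did.

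Of the 11 other RGS genes, Rgs8 had 3.48 ± 0.178 FPKM, Rgs11 had 1.64 ± 0.446 FPKM and Rgs20 had 0.628 ± 0.113 FPKM in vehicle-treated cells at low glucose. The remaining 8 (Rgs1, Rgs5, Rgs6, Rgs13, Rgs14, Rgs18, Rgs21 and Rgs22) had at most 0.154 FPKM in any library and did not pass the filter on low counts, which all 10 members passed. Over the 12 libraries, the highest value was 2.50 times the lowest for Rgs16 and 2.0 times for Rgs2. It was between 1.13 times (Rgs7) and 1.48 times (Rgs4) for the other 8 members. Rgs7 was the steadiest member, with a coefficient of variation of 2.99%, against 29.8% for Rgs2.

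**Figure D1:**
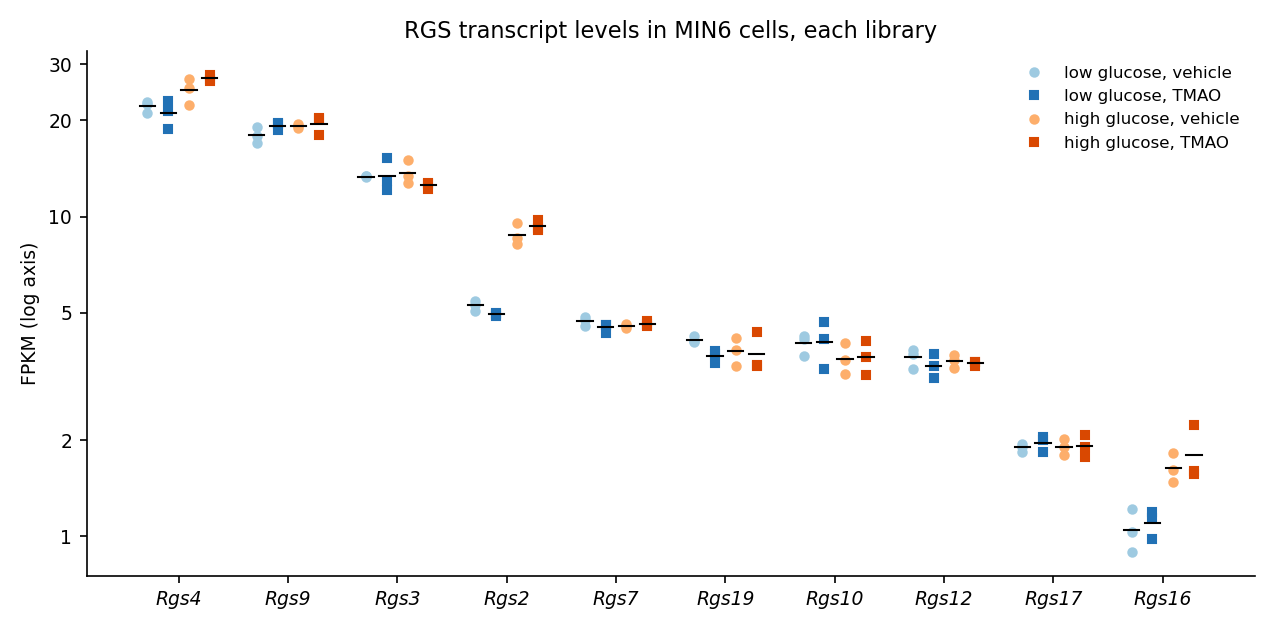
FPKM on a log axis of the 10 RGS genes, ordered by their mean in vehicle-treated cells at low glucose; each point is a library and each black bar the mean of 3 libraries. Rgs4, Rgs9 and Rgs3 lie above 12 FPKM in all libraries, and in Rgs2 and Rgs16 every high-glucose library lies above every low-glucose library.

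High glucose was first compared with low glucose over both treatments together. Of the 10 members, 3 were higher in high glucose, Rgs2, Rgs4 and Rgs16, and 0 were lower (edgeR's quasi-likelihood test, adjusted p under 0.05 over all 16222 genes tested). Of all genes tested, 4.13% were called higher and 4.06% lower in this comparison. The 10 members were chosen with earlier results of these data known, so their share called is not a test of the family. Among all 13 RGS genes tested, Rgs2, Rgs4 and Rgs16 were called higher and 0 were called lower. The 3 genes belong to the R4 subfamily. The fourth R4 member, Rgs3, differed by a log2 fold change of -0.03 (SE 0.05), and the R4 gene outside the list that passed the filter, Rgs8, by 0.08 (SE 0.05), neither of them called. Summed over the 10 R4 genes in the tables, the level was 45.4 ± 1.06 FPKM at low glucose and 52.8 ± 2.19 FPKM at high glucose in vehicle-treated cells, and 44.2 ± 1.54 and 54.6 ± 0.891 FPKM in TMAO-treated cells (SD, n = 3). The R4 sums of the low-glucose libraries ended at 46.0 FPKM and those of the high-glucose libraries began at 51.3 FPKM. The R7, R12 and RZ sums overlapped between glucose levels with both treatments. No test was made of these sums.

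Rgs2 had the largest log2 fold change among the members. Its value over both treatments lay inside the 95% interval of Rgs16, 0.40 to 0.95, so the 2 genes were not ranked apart. At low glucose the 3 vehicle libraries of Rgs2 had 5.07, 5.45 and 5.30 FPKM and its 3 TMAO libraries 5.01, 4.95 and 4.89 FPKM. At high glucose the vehicle libraries had 8.22, 8.60 and 9.54 FPKM and the TMAO libraries 9.10, 9.78 and 9.23 FPKM. All 6 high-glucose libraries were above all 6 low-glucose libraries. The log2 fold change was 0.74 (SE 0.07, 95% interval 0.59 to 0.88) with vehicle, a 1.67-fold difference, with an adjusted p of 1.03e-08 in edgeR. With TMAO it was 0.92 (SE 0.07, 0.78 to 1.07), a 1.90-fold difference, with an adjusted p of 7.33e-11. Over both treatments it was 0.83 (SE 0.05), with an adjusted p of 1.13e-13. Each library held between 332 and 795 counts of Rgs2.

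Rgs4, which is known to limit M3 muscarinic signalling in beta cells, had a smaller log2 fold change. Its low-glucose libraries had 22.9, 21.1 and 22.6 FPKM with vehicle and 23.0, 21.4 and 18.8 FPKM with TMAO. Its high-glucose libraries had 22.4, 25.2 and 27.0 FPKM with vehicle and 26.6, 27.8 and 27.0 FPKM with TMAO. The vehicle libraries overlapped between glucose levels and the TMAO libraries did not. The log2 fold change was 0.17 (SE 0.07) with vehicle, which was not called (edgeR, adjusted p = 0.247), and 0.37 (SE 0.07, 0.23 to 0.51) with TMAO, a 1.29-fold difference with an adjusted p of 9.82e-04. Over both treatments it was 0.27 (SE 0.05, adjusted p = 3.41e-04). High-glucose vehicle replicate 1 lay lowest of its group, and without it Rgs4 was called with vehicle too, at a log2 fold change of 0.24 (edgeR, adjusted p = 0.0428). Without high-glucose vehicle replicate 3, the highest of that group, the value with vehicle was 0.10 (edgeR, adjusted p = 0.694). With limma on log2(FPKM + 0.1), the call with TMAO was lost (adjusted p = 0.0782).

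Rgs16, known in islets for limiting somatostatin signalling, was the lowest of the 10 genes and had a large fold difference. Its low-glucose libraries had 46, 40 and 53 counts with vehicle and 54, 52 and 43 counts with TMAO. Its high-glucose libraries had 80, 77 and 59 counts with vehicle and 88, 82 and 64 counts with TMAO. In FPKM these were 0.894 to 1.21 at low and 1.48 to 2.24 at high glucose, with no overlap between the levels in either treatment. The log2 fold change was 0.65 (SE 0.19, 0.25 to 1.04) with vehicle, which was not called (edgeR, adjusted p = 0.0603), and 0.70 (SE 0.19, 0.31 to 1.08) with TMAO, which was called (adjusted p = 0.0322). Over both treatments it was 0.67 (SE 0.14), a 1.59-fold difference with an adjusted p of 9.94e-04. The call with TMAO alone was lost in the Wald test of DESeq2 (adjusted p = 0.0684) and with limma on log2(FPKM + 1) (0.0552) or log2(FPKM + 0.1) (0.0843). It was also lost without low-glucose TMAO replicate 1, 2 or 3 or without high-glucose TMAO replicate 1, with adjusted p of 0.0586, 0.0541, 0.133 and 0.211. With the replicate number as a block, Rgs16 was called with vehicle (edgeR, adjusted p = 0.0466).

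**Figure D2:**
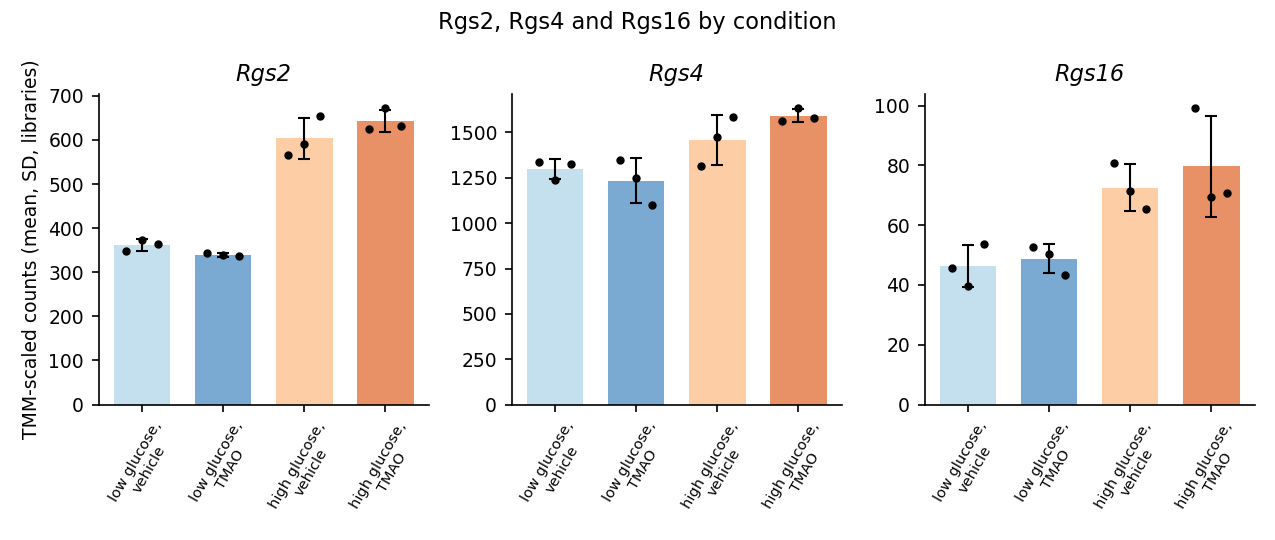
Counts scaled by the TMM library sizes for Rgs2, Rgs4 and Rgs16 in the 4 conditions; bars are means, error bars the SD and points the 3 libraries, on a linear axis that starts at 0. The high-glucose libraries of Rgs2 and Rgs16 lie above those of low glucose with either treatment, while those of Rgs4 overlap with vehicle.

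The calls were also counted within each treatment. With vehicle, 1 of 10 members was called higher (Rgs2) and 0 lower, where 1.99% of all tested genes were called higher and 1.31% lower. With TMAO, 3 of 10 were called higher and 0 lower, where 2% of all tested genes were called higher and 1.64% lower. Libraries did not overlap, with high glucose above, for 2 of 10 members with vehicle (9.28% of all tested genes), for 3 of 10 with TMAO (8.98%) and for 2 of 10 over both treatments (2.62%). The median log2 fold change over the 10 members was 0.03 with either treatment, beside 0.00 for all tested genes. The difference between the glucose responses with TMAO and with vehicle, tested as an interaction, was called for 0 of 10 members and 0% of all tested genes. The interaction was 0.19 (SE 0.10, -0.02 to 0.40) for Rgs2, 0.20 (SE 0.09, 0.01 to 0.40) for Rgs4 and 0.05 (SE 0.27, -0.51 to 0.60) for Rgs16. In the edgeR fit to all 12 libraries, only Rgs4 had an unadjusted p under 0.05 (edgeR, unadjusted p = 0.0423, adjusted p = 1.00), and DESeq2's Wald test gave 0 members at that threshold. The interaction of Rgs4 was 0.13 without low-glucose TMAO replicate 3 or without high-glucose vehicle replicate 1. That of Rgs16 lay between -0.13 and 0.15 when each library was left out and was below 0 in 4 of 19 alternative settings. Of all genes, 545 in edgeR and 363 in DESeq2 had an unadjusted p under 0.05 for the interaction.

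For the other 7 members, no difference between glucose levels was called, and their log2 fold changes over both treatments lay between -0.15 (Rgs10) and 0.06 (Rgs9). Rgs9 (edgeR, adjusted p = 0.376) had 16.97 to 19.60 FPKM at low and 18.1 to 20.3 FPKM at high glucose. Rgs10 (adjusted p = 0.439 in edgeR) had 3.34 to 4.67 FPKM at low and 3.20 to 4.10 FPKM at high glucose, and its 95% interval ran from -0.36 to 0.05. Without low-glucose TMAO replicate 1, the highest library of Rgs10, its log2 fold change was -0.095. The libraries of both glucose levels overlapped for all 7 genes. The intervals of Rgs7 (-0.10 to 0.09), Rgs12 (-0.11 to 0.10), Rgs17 (-0.13 to 0.12), Rgs3 (-0.13 to 0.08) and Rgs9 (-0.01 to 0.14) on the log2 scale left out the sizes measured for Rgs2 and Rgs16. The interval of Rgs19 was wider, from -0.22 to 0.12, with 130 to 176 counts per library. Rgs8, Rgs11 and Rgs20 were not called either, with log2 fold changes of 0.08, 0.16 and -0.23.

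**Figure D3:**
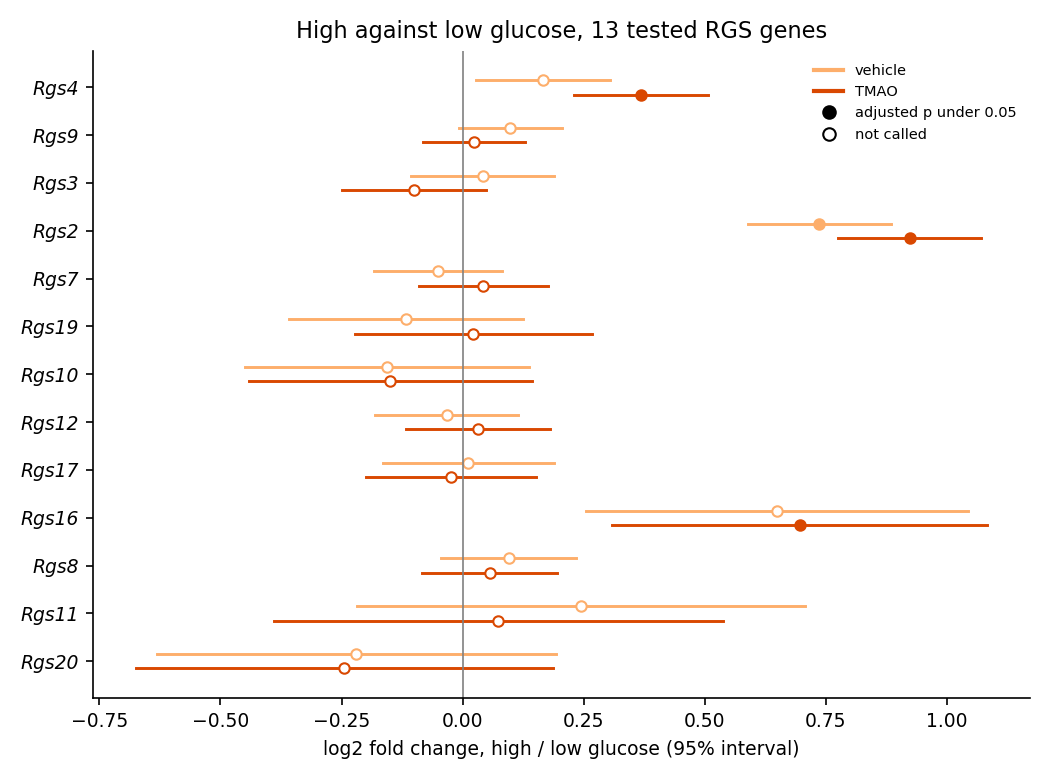
Log2 fold change of high against low glucose with 95% intervals from edgeR for the 13 RGS genes that passed the filter on low counts, with vehicle (light) and TMAO (dark); filled points were called. Rgs2 is called with both treatments, Rgs4 and Rgs16 with TMAO, and the other 10 genes with neither.

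Of the 21 RGS genes, 11 lie on chromosome 1, among them Rgs2, Rgs4, Rgs7 and Rgs16. On GRCm38, Rgs2 spans chr1:143999338-144004161 on the minus strand, Rgs16 spans chr1:153740349-153745468 on the plus strand and Rgs4 spans chr1:169741477-169747642 on the minus strand. Rgs7 lies at chr1:175059087-175492500, Rgs19 at chr2:181688419-181693977, Rgs3 at chr4:62559847-62704001, Rgs12 at chr5:34949445-35039644, Rgs10 at chr7:128373621-128418758, Rgs17 at chr10:5825663-5922400 and Rgs9 at chr11:109225355-109298129. The nearest RGS neighbours of Rgs2, Rgs16 and Rgs4 were not called or were too low to test. Rgs8 lies 40.0 kb from Rgs16 and had 3.17 to 3.73 FPKM at low and 3.54 to 3.81 FPKM at high glucose, and Rgs5 lies 45.7 kb from Rgs4 and had 1 to 11 counts per library. Rgs13, 134.5 kb from Rgs2, had 0 counts in all 12 libraries, where a 0 in 1 library taken alone would allow up to 3 counts. In GENCODE M21, whose coordinates for the 10 members equal those of the tables, 236 exonic bases of Rgs16 (10.1% of its exons) overlap the antisense gene Gm28513 and 467 of Rgs12 overlap the antisense gene Gm43791. The strand setting of the counting is not given in the sources used here, and these antisense genes had means of 0.333 and 0 counts per library.

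The RefSeq sequences before the start sites of the 3 genes that were higher in high glucose are shown because these 3 were the members called over both treatments, as a description of the sequence only. Each is the 250 bases before the start, 5' to 3' on the gene's strand, and capitals mark TGACG or its reverse complement, the core of the cAMP response element (CRE). The regions on GRCm38.p6 are chr1:144004150-144004399 for Rgs2 and chr1:169747643-169747892 for Rgs4, both on the minus strand, and chr1:153740103-153740352 on the plus strand for Rgs16.
Rgs2: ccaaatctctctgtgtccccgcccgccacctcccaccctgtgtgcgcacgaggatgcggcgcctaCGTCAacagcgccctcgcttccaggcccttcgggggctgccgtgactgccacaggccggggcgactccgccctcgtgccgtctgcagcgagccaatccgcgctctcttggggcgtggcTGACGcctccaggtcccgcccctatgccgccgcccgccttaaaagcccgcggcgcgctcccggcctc
Rgs4: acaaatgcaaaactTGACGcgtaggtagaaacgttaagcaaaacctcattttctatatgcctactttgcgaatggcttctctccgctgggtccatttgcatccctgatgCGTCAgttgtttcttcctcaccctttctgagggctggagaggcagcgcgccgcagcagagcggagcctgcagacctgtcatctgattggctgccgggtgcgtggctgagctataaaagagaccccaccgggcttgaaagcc
Rgs16: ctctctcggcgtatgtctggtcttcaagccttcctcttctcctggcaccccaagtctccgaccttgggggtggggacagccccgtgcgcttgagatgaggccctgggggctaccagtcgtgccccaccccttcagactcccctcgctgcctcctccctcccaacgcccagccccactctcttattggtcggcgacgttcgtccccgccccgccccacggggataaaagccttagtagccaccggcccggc

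Windows of 300 bases, from 250 before to 50 after the start, were searched on both strands for 6 motifs, and all 10 members had at least 1 window among 32851. TGACG was present at 2 places each in the windows of Rgs2 and Rgs4 and at 0 in that of Rgs16, where 20.8% of all windows held it at least once and 5.01% at 2 or more places. The window of Rgs12, which was not called, held it at 1 place. The full CRE TGACGTCA, which contains TGACG on both strands, was in 0 windows of the members and in 1.79% of all windows. The AP-1 site TGANTCA (7.81% of all windows) was found before Rgs12 and Rgs17, the E-box CACGTG (7.15%) in Rgs7 and Rgs19, and the CArG box (1.63%) in no member. The TATA box TATAAA (13.6%) was found in Rgs4, Rgs3 and Rgs9. In Rgs4 it lay at bases 220 to 225 of the window, where the start follows base 250. The windows of Rgs2 and Rgs16 had a GC content of 70.0% and 66.0% and that of Rgs4 53.0%, beside a median of 52.7% over all windows. The binding of any factor was not measured.

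Across the 12 libraries, the 3 genes outside the family whose log2 library-scaled counts were most like those of Rgs2, among 12297 genes with a mean of at least 50 counts, were Errfi1, B230216N24Rik and Zc3h12c. Their Pearson correlations with Rgs2 were 0.991, 0.989 and 0.989. The libraries fall into low- and high-glucose clusters, so the correlations are also given within each. Within the 6 low-glucose libraries the correlations were 0.10, 0.26 and 0.75, and within the 6 high-glucose libraries 0.81, 0.83 and 0.68. Errfi1, which encodes an inhibitor of the EGF receptor, had a log2 fold change between glucose levels of 1.29.

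TMAO was compared with vehicle at each glucose level. At low glucose, 0 of 10 members were called, where 0.00616% of all tested genes (1 gene) were called. At high glucose, 0 of 10 members were called, where 0% of all tested genes were. The paper reports genes up and down in this comparison from its own analysis, whose threshold was not compared here. No member had an unadjusted p under 0.05 in either comparison in the edgeR fit to all 12 libraries or in the Wald test of DESeq2. In these fits that threshold was passed by 357 and 868 of all genes in edgeR and by 230 and 612 in DESeq2 at low and high glucose. In other edgeR settings 0 to 2 members passed it. At low glucose it was 2 members, and 524 of all genes, without low-glucose TMAO replicate 1. At high glucose it was 2 members with no filter on low counts, with the 6 libraries compared or without high-glucose vehicle replicate 3, beside 1402, 1043 and 802 of all genes.

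At low glucose the log2 fold changes of the members with TMAO lay between -0.17 (Rgs19) and 0.10 (Rgs9), the latter 0.056 without low-glucose vehicle replicate 1. Rgs19 had 4.05, 4.08 and 4.23 FPKM with vehicle and 3.49, 3.79 and 3.71 FPKM with TMAO, with a 95% interval of the log2 fold change from -0.41 to 0.07. Rgs2 differed by -0.09 (-0.25 to 0.06). For these 2 genes every TMAO library lay below every vehicle library at low glucose, and libraries did not overlap in either direction for 6.36% of all tested genes. At high glucose the log2 fold changes lay between -0.13 (Rgs3) and 0.13 (Rgs4), and libraries overlapped in all 10 members (11.1% of all tested genes did not overlap). Rgs3 had 15.0, 12.7 and 13.4 FPKM with vehicle and 12.2, 12.7 and 12.6 FPKM with TMAO. Rgs4 differed by 0.13 (-0.01 to 0.26), Rgs2 by 0.10 (-0.04 to 0.23) and Rgs16 by 0.12 (-0.25 to 0.49) on the log2 scale. These values moved with single libraries: without high-glucose vehicle replicate 1, Rgs3 was at -0.061, Rgs4 at 0.059 and Rgs2 at 0.052. Rgs2 was at 0.061 without high-glucose TMAO replicate 2 and at 0.16 without high-glucose vehicle replicate 3. Rgs16 turned to -0.054 without high-glucose TMAO replicate 1, and lay between that value and 0.22 when each library was left out. Among the members other than Rgs10, Rgs16 and Rgs19, every 95% interval at either glucose level lay within -0.28 to 0.26. The intervals of Rgs10, Rgs16 and Rgs19, the members with the fewest counts, reached from -0.41 to 0.49.

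**Figure D4:**
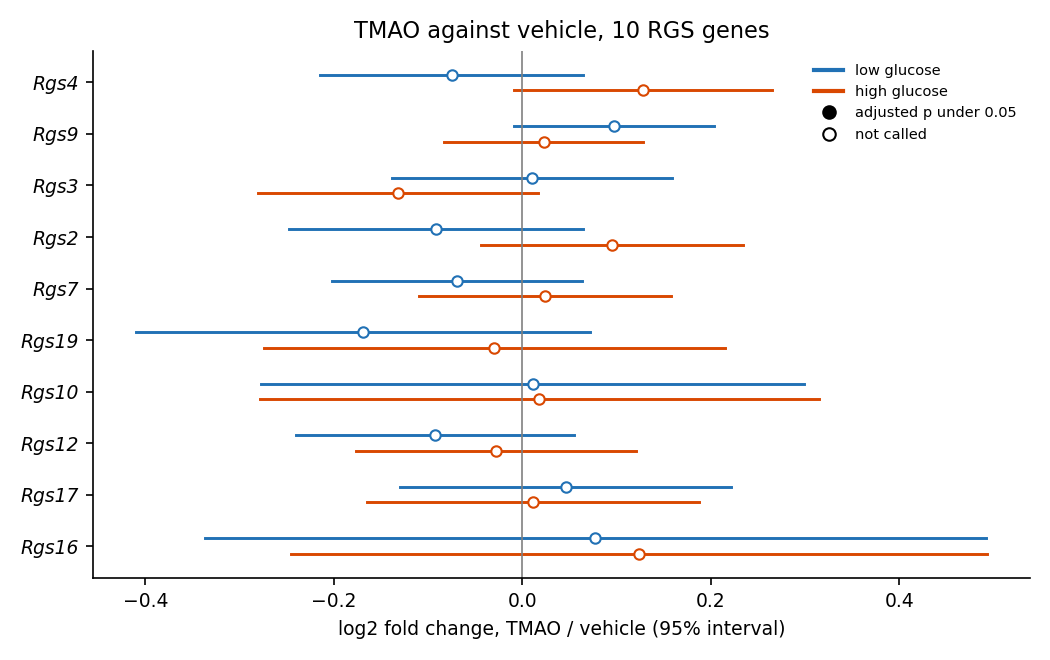
Log2 fold change of TMAO against vehicle with 95% intervals from edgeR for the 10 members at low (blue) and high (orange) glucose; open points were not called. All 20 intervals include 0, and the widest belong to Rgs16.

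The genes that RGS proteins work with were read from the same test, in lists chosen by function. Their counts over both treatments stand beside 4.13% of all tested genes called higher and 4.06% called lower, and 1 gene in a list this short is not a result about the list. Of 4 partners of the R7 subfamily, Rgs7bp, which anchors these proteins at the membrane, was higher in high glucose over both treatments (log2 fold change 0.18, SE 0.05, edgeR adjusted p = 0.0169), from 4.61 FPKM at low to 5.19 FPKM at high glucose with vehicle. Gnb5, their obligate beta subunit, differed by 0.11 (adjusted p = 0.263 in edgeR), and Gpr158, an orphan receptor that binds Rgs7, by -0.03. Of 13 tested alpha subunits, 1 was lower, Gnaz (-0.14, SE 0.04, edgeR adjusted p = 0.0313), a substrate of the RZ subfamily, and 0 were higher. The 2 with the highest levels, Gnai2 and Gnai3, differed by -0.06 and 0.03. Of 9 tested beta and gamma subunits, Gng4 was higher (0.17, SE 0.04) and 0 were lower. None of the 3 tested phospholipase C beta genes, which act downstream of Gq, and none of the 11 other tested modulators of G proteins was called. The median log2 fold change was 0.14 for the R7 partners, 0.01 for the alpha subunits, 0.02 for the beta and gamma subunits, 0.03 for the other modulators and 0.00 for phospholipase C beta, beside 0.00 for all tested genes.

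Of 17 tested receptors that signal through Gi/o or Gq/11, 5 were higher and 3 were lower in high glucose over both treatments, where 4.13% of all tested genes were called higher and 4.06% lower. Their median log2 fold change was 0.06. The prostaglandin E2 receptor Ptger3 (0.52, SE 0.08) and the purinergic receptor P2ry1 (0.48, SE 0.05) had the largest rises among those called. P2ry1, which couples to Gq, had 8.77 ± 0.374 FPKM at low and 12.5 ± 1.39 FPKM at high glucose with vehicle, and 9.27 ± 0.163 and 12.7 ± 0.398 FPKM with TMAO (SD, n = 3). Its libraries did not overlap between glucose levels. The galanin receptor Galr1 (0.26, SE 0.04), the short-chain fatty acid receptor Ffar2 (0.23, SE 0.05) and the alpha-2A adrenergic receptor Adra2a (0.11, SE 0.03) were also higher. The somatostatin receptors Sstr5 (-0.23, SE 0.05) and Sstr3 (-0.16, SE 0.04) and the orphan receptor Gprc5b (-0.18, SE 0.05) were lower. Sstr5 had 10.8 ± 0.414 FPKM at low and 9.19 ± 0.847 FPKM at high glucose with vehicle. The muscarinic receptor Chrm3 had 2.29 FPKM at low glucose with vehicle and differed by -0.07 (SE 0.07, edgeR adjusted p = 0.656). The calls of Rgs7bp, Gnaz, Adra2a and Gprc5b were lost in 6, 10, 8 and 8 of 19 alternative settings. With TMAO against vehicle, 0 genes of these lists were called at either glucose level.

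**Figure D5:**
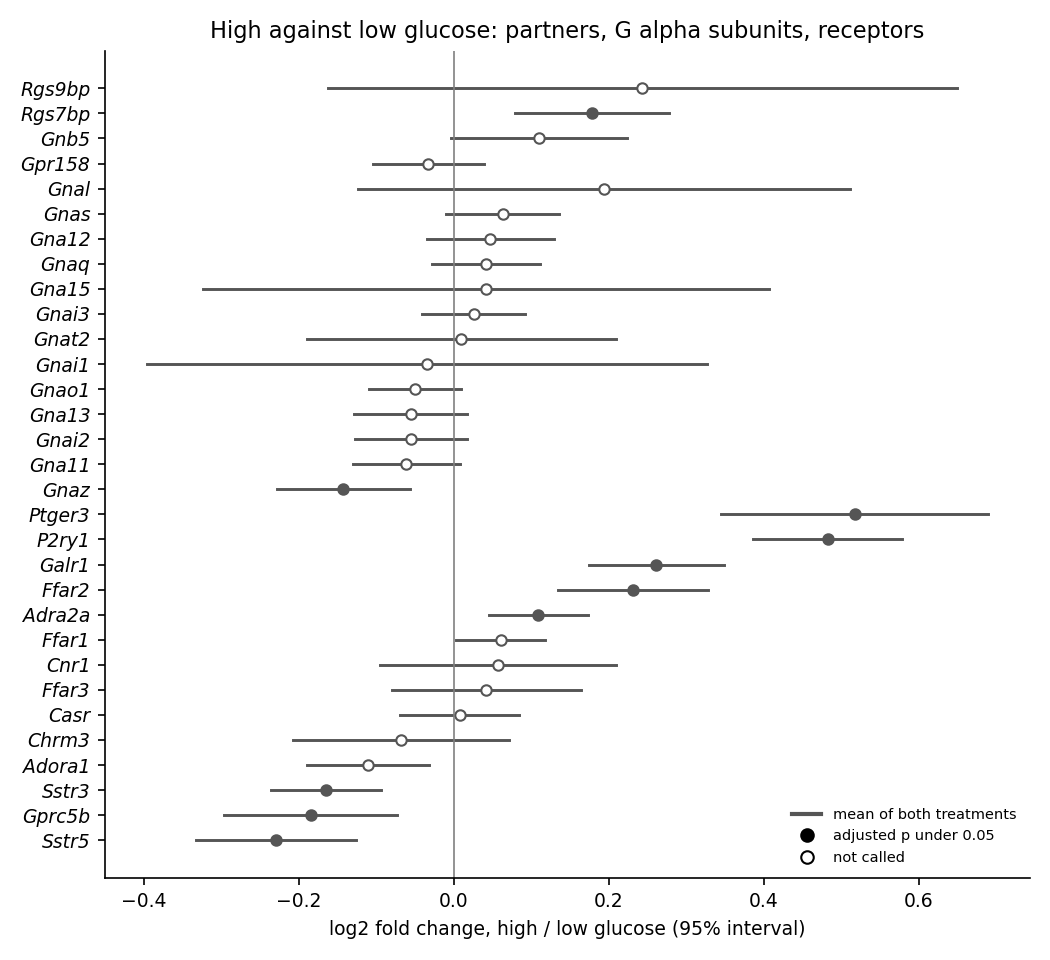
Log2 fold change of high against low glucose over both treatments, with 95% intervals from edgeR, for 4 partners of the R7 subfamily, 13 G alpha subunits and 14 receptors whose standard error was at most 0.2; filled points were called. Ptger3 and P2ry1 lie highest among the receptors and Sstr5 lowest.

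Library depth was 18408414 to 19441338 counts at low and 16793162 to 22340542 at high glucose, with TMM factors from 0.994 to 1.01 and a mitochondrial share of 1.498% to 1.755%. The summed level of the 7 beta cell markers was 39127 to 44781 FPKM at low and 43430 to 46521 FPKM at high glucose, and that of 5 markers of other islet cells, nearly all of it Gcg, 200.7 to 218.4 and 224.2 to 229.6 FPKM. Of the beta cell markers, 3 were called higher in high glucose over both treatments (Mafa, Iapp and Slc2a2), as was Gcg (0.11), and the part of these shifts in the RGS differences was not tested.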

How the data were processed

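Poly-A RNA of 12 MIN6 samples (4 conditions, 3 each, grouped by the sample labels) was sequenced. The authors deposited counts per gene without normalization, and FPKM values. Per the labels' processing notes, HISAT2 2.0.5, featureCounts 1.5.0-p3 and DESeq2 1.16.1 were used on mm10. All per-sample columns were used. The 10 genes and the other lists were chosen with earlier results of these data known.

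The main test used edgeR 4.0.16 in R 4.3.3: filterByExpr by condition (16222 genes kept), TMM, and the robust quasi-likelihood test on the 4 condition means, with Benjamini-Hochberg adjustment over all genes tested. Calls are at an adjusted p under 0.05. The SE is the log2 fold change over the square root of F. Depth was 16793162 to 22340542 counts, which covers counting error only, and the biological coefficient of variation was 5.34%. Members, every called gene of the other lists and up to 2 of the most abundant uncalled genes per list were named, with others by neighbourhood or role after their values were seen. Alternatives were DESeq2 1.42.0 (size factors and Wald test), 2 other count filters, only the libraries compared, a replicate block, limma 3.58.1 on log2(FPKM + 1) and log2(FPKM + 0.1), which understates changes of low genes, and each library left out. Scripts were tested on simulated counts. Within a condition, the spread between every pair of libraries exceeded sampling noise (median chi-square ratio 1.73 to 3.10). Promoter windows are RefSeq's, on GRCm38.p6. Figures used matplotlib 3.10.9.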

Additional observations from a re-analysis of the deposited data

How the results depend on the processing

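Over both treatments, Rgs2, Rgs4 and Rgs16 were called higher in high glucose in all 19 alternative settings, with log2 fold changes of 0.72 to 0.85, 0.23 to 0.30 and 0.39 to 0.73. The count of members called with TMAO was 1 in place of 3 with limma on log2(FPKM + 0.1). Over 14 alternative settings, the call with TMAO was lost in 7 for Rgs16, in 1 for Rgs4 and in 0 for Rgs2. With vehicle the count of members called was 1, from 1 to 2 when each library was left out. It was 2 with the replicate number as a block, which called Rgs16 (edgeR, adjusted p = 0.0466). The replicate numbers were not taken to pair the libraries: correlations of the deviations of same-numbered libraries lay between -0.04 and 0.04 for the glucose comparisons, between 0.03 and 0.21 for TMAO at low glucose and between -0.01 and 0.07 at high glucose. The block changed the count for no other comparison. When each library was left out in turn, the log2 fold change of Rgs16 crossed 0 for TMAO at low glucose (-0.025 to 0.20), for TMAO at high glucose (-0.054 to 0.22) and for the interaction (-0.13 to 0.15), and the cause was not tested. The order of the members by level was the same with TMM-scaled counts per kilobase as with FPKM. Both use the same counts and the same gene lengths, so this could hardly differ and does not test the order. Depth limits Rgs16 most, with 40 to 88 counts per library.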
